A study of Mus musculus with 24 samples.

Results

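Membrane trafficking genes carry vesicles between the compartments of a cell, and 185 of them were described here among the RNAs immunoprecipitated with STAU2 from embryonic mouse cortex. They were chosen by gene symbol alone, as the Rab, Arf and Arl GTPases, coat and adaptor subunits, tethers, sorting factors and SNAREs of the peak table, out of 7702 genes with an exonic peak. Their 323 peaks were among 13749 exonic peaks, and each gene's counts were summed over its peaks. Peaks in introns or outside genes were not summed.

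The study collected brain cortex of C57BL/6 mouse embryos at 4 embryonic days, E11.5 and E13.5, then E15.5 and finally E17.5, without any stated mutation or treatment. At each stage the labels list 3 RNA immunoprecipitations with an antibody against STAU2 and 3 inputs, 24 samples in all, to follow which RNAs STAU2 binds as the cortex develops. The names of the 12 count columns, a stage and a number, could equally stand for inputs. Because the rows are peaks, the columns were taken to be immunoprecipitations, and the values below depend on this. Inputs were not analysed here, so the amount of an RNA and its binding by STAU2 cannot be told apart. In bulk tissue, fewer cells of a type and less RNA per cell cannot be told apart either. The labels do not say whether the 3 libraries of a stage came from separate embryos or litters, so p-values measure the spread between these libraries, which may be technical.

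STAU2 is a double-stranded RNA-binding protein that takes part in RNA transport and localisation in neurons and neural progenitors. Rab and Arf proteins are small GTPases that mark membranes and recruit effectors when bound to GTP. Coat and adaptor complexes bud vesicles and pick cargo, tethers such as the exocyst, TRAPP and HOPS catch arriving vesicles, and SNAREs fuse them with the target. In neurons the same machinery delivers membrane to growing neurites and releases synaptic vesicles.

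Libraries held 1954160 to 4693793 counts in exonic peaks of genes, of which the trafficking genes took 22412 to 74786. The smallest libraries were those of E11.5. Levels (CPM) are read counts scaled to a common library size with trimmed means (TMM), and a call means an adjusted p under 0.05 in edgeR's quasi-likelihood test over all 7651 genes tested. Of the 185 genes, 184 passed the filter on low counts; Vps13c did not. The share of exonic counts in trafficking genes averaged 1.18% ± 0.039, 1.43% ± 0.048, 1.61% ± 0.14 and 1.70% ± 0.071 from E11.5 to E17.5 (SD, n = 3 each).

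Of the 323 peaks, the table places 172 (53.3%) in 3' UTRs, 118 (36.5%) in exons and 33 (10.2%) in 5' UTRs. Over all genes these shares were 48.7%, 43.0% and 8.26%. In the GENCODE M21 annotation, 35 of the 172 peaks called 3' UTR and 17 of the 33 called 5' UTR lie mostly in coding sequence. A single peak was found for 107 genes, and the highest number was 7. Another annotated gene overlaps 49 of the peaks, in 34 genes, on the same strand for 17 peaks and on the opposite strand for 33. Among the genes described, this touches Vamp3 (Camta1, same strand), Rab3a, Vps54, Trappc9, Rab4a and Tbc1d23, whose counts are uncertain to that extent. The library kit marks the strand and the table gives counts per strand, but how reads were assigned to strands was not recorded in the labels or headers.

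Coding stretches under peaks of 4 members are shown because these genes moved in opposite directions and include the paralogues Arl8a and Arl8b. They were picked after their values were seen, among peaks with a coding run of at least 80 bases. Each is read 5′ to 3′ from GENCODE M21 transcripts of GRCm38, and capitals mark the 2 arms of the longest uninterrupted helix that RNAfold predicts in the stretch. A predicted helix describes the letters and is not a measured STAU2 site.
Exoc1 (chr5:76549452-76549601, plus strand): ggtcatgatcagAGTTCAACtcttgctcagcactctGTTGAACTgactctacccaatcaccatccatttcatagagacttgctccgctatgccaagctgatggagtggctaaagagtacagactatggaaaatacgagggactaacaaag
Arl8a (chr1:135146978-135147100, plus strand): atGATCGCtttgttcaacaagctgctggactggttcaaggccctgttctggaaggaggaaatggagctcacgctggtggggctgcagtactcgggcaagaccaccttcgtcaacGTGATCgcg
Rab4a (chr8:123830297-123830387, plus strand): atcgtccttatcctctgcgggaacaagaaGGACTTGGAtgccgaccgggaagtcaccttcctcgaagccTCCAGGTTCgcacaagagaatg
Arl8b (chr6:108813627-108813707, plus strand): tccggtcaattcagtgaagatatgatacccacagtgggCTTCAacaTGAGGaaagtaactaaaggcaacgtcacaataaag
The predicted helices run over 8 base pairs in Exoc1, 6 in Arl8a, 9 in Rab4a and 5 in Arl8b. The GC content of the stretches was 45.3% in Exoc1, 56.1% in Arl8a, 54.9% in Rab4a and 42.0% in Arl8b. At E17.5 against E11.5, the peaks that hold the stretches of Exoc1 and Arl8a rose and those of Rab4a and Arl8b fell, as given below.

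Between the ends of the series, at E17.5 against E11.5, 69 of 184 trafficking genes rose (37.5%) and 36 fell (19.6%). Over all genes, 29.8% rose and 28.8% fell. The median log2 change was 0.42 for the trafficking genes and 0.04 for all genes tested. All 3 E17.5 libraries lay above all 3 E11.5 libraries for 77 of the 184 genes (41.8%), and below them for 45 (24.5%). Over all genes these shares were 32.1% and 31%. Scaling by the total of exonic counts in place of TMM moved the median of all genes by 0.30. It gave 82 rises and 28 falls, against 37.5% and 23% of all genes. Scaling by the total of all rows within genes moved that median by 0.70. It gave 105 rises and 16 falls, against 46.9% and 15.8% of all genes. The numbers of rises and falls are therefore relative to the scaling.

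**Figure D1:**
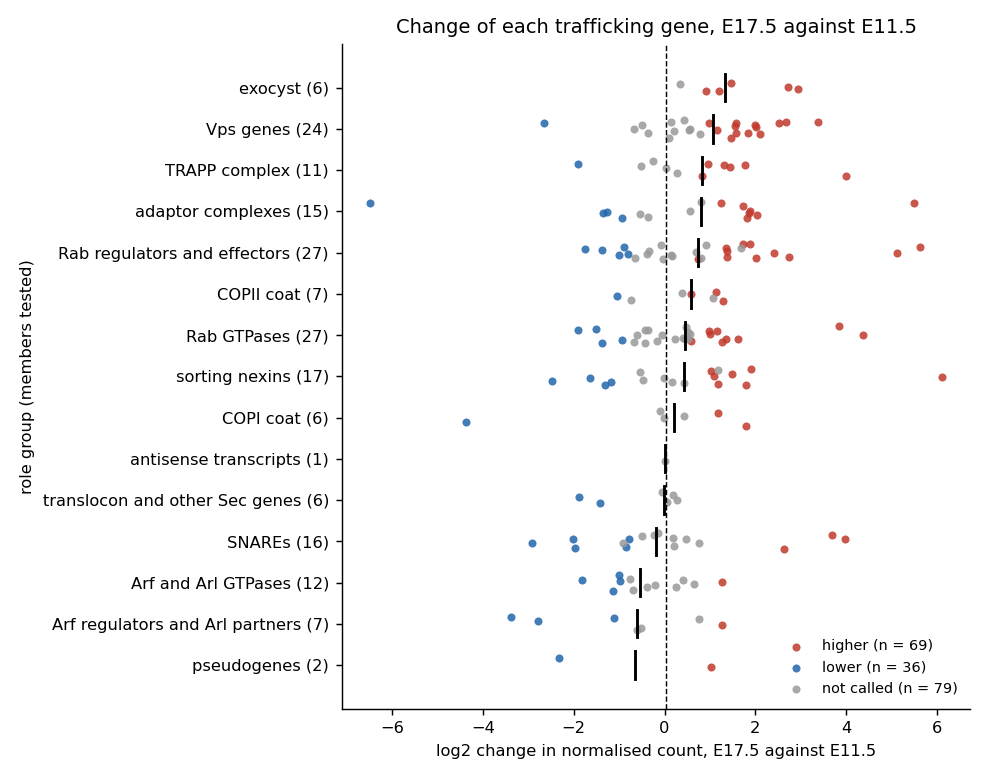
Log2 change at E17.5 against E11.5 (x axis) of the 184 tested trafficking genes by role group (y axis), coloured by call; black bars are group medians and the dashed line is the median of all genes tested. Medians run from 1.33 in the exocyst to -0.66 in the pair of pseudogenes, and rises and falls stand side by side in most groups.

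Exocyst subunits tether secretory vesicles to the plasma membrane. Of 6, 5 rose and none fell, against 29.8% and 28.8% of all genes. Exoc7, a subunit that binds membrane lipids, had 111, 51.7 and 136 CPM in E17.5 libraries, against 15.9, 9.26 and 13.6 CPM in E11.5 libraries. The groups did not overlap (log2 change 2.93, SE 0.40, adjusted p = 9.3e-06). Exoc1 had 89.4, 67.7 and 71.7 CPM at E17.5, against 12, 8.64 and 14.2 CPM at E11.5 (log2 change 2.71, SE 0.30, adjusted p = 9.3e-07). Each of its 3 peaks rose, the one holding the stretch shown above by 2.21 (SE 0.48) and that in the 3' UTR by 2.94 (SE 0.42) on the log2 scale. Exoc6b, Exoc6 and Exoc3 rose by 1.21, 1.46 and 0.91, and the call of Exoc3 was lost without any one of 11 libraries. Exoc4 averaged 83.8 CPM at E17.5 and 66.0 CPM at E11.5, with overlapping libraries (log2 change 0.34, SE 0.39).

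Among the adaptor complexes, which link cargo to coats, 7 of 15 genes rose and 4 fell, against 29.8% and 28.8% of all genes. Scaling by all rows within genes gave 9 and 1, against 46.9% and 15.8%. Ap3b2, the neuronal beta subunit of AP-3, an adaptor of endosomal and lysosomal sorting, averaged 1.87 ± 0.0402 CPM at E11.5, 5.94 ± 1.90 CPM at E13.5, 22.4 ± 10.7 CPM at E15.5 and 86.3 ± 18.8 CPM at E17.5 (SD, n = 3 each). It was called higher at each of the 3 steps, by 1.64, 1.90 and 1.95 on the log2 scale, and by 5.5 at E17.5 against E11.5 (SE 0.48, adjusted p = 9.0e-08). The E11.5 libraries held 4, 3 and 3 counts of it, so that level is known with little precision. The call of its first step was lost without any one of 5 libraries (each E11.5 library and E13.5 replicates 2 and 3), and that of its second without any one of 4. Ap3b1, the ubiquitous beta subunit, had 40.6, 43.2 and 27.9 CPM in E17.5 libraries, against 63.4, 74.7 and 75.3 CPM in E11.5 libraries (log2 change -0.93, SE 0.27, adjusted p = 0.0074). That fall was not called with either other scaling. Of the other AP-3 subunits, Ap3d1 and Ap3m2 rose by 2.04 and 1.87, Ap3m1 fell by 1.27, and Ap3s2 did not pass the test (log2 change 0.80, SE 0.40). The fall of Ap3m1 was not called with scaling by all rows within genes.

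Ap1s3, a small subunit of the AP-1 adaptor of the trans-Golgi network, showed the largest fall of the 184 genes. It had 1.63, 0.292 and 0 CPM in E17.5 libraries, against 55.7, 46.9 and 76.5 CPM in E11.5 libraries (log2 change -6.48, SE 0.61, adjusted p = 1.8e-07). Its mean was already 4.51 ± 0.472 CPM at E13.5, and the E17.5 libraries held 6, 1 and 0 counts. Several other AP-1 and AP-2 subunits were higher: Ap1b1 rose by 1.88, Ap1m1 by 1.23 and Ap2a1, the endocytic alpha subunit, by 1.81. Ap4b1, of AP-4, rose by 1.73, while Ap4s1, its small subunit, fell by 1.35, a call lost with scaling by all rows within genes.

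Of the 27 Rab GTPases, 9 rose and 4 fell, against 29.8% and 28.8% of all genes. Scaling by all rows within genes gave 14 and 2, against 46.9% and 15.8%. Rab3a, which sits on synaptic vesicles and takes part in regulated release, had 309, 168 and 284 CPM at E17.5, against 16.8, 8.64 and 10.5 CPM at E11.5 (log2 change 4.38, SE 0.34, adjusted p = 3.2e-08). Its mean was 109.6 CPM at E13.5 and 159 CPM at E15.5, and the log2 change at E13.5 against E11.5 was already 3.17. Its single peak, in the 3' UTR, also overlaps Mpv17l2 on the opposite strand. Rab3b, its close paralogue, averaged 5.26, 10.7, 9.95 and 75.9 CPM from E11.5 to E17.5. It was called higher at E17.5 against E15.5 (log2 change 2.93, SE 0.32, adjusted p = 1.7e-05) and not at E13.5 against E11.5 (log2 change 1.02, adjusted p = 0.051).

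The most abundant Rab RNA per kilobase of peak was Rab11b, a GTPase of recycling endosomes. It averaged 1043 ± 299 CPM at E17.5 and 435 ± 148 CPM at E11.5 (SD, n = 3 each; log2 change 1.26, SE 0.39, adjusted p = 0.010). That call was lost without E11.5 replicate 1 or E17.5 replicate 3, and reads of the pseudogene Rab11b-ps2 (log2 change 1.02) may be shared with it; the call of the pseudogene was lost without E11.5 replicate 1 or E17.5 replicate 1 or 3. Rab6b, a neuronal Golgi Rab, rose by 1.63, whereas Rab6a averaged 198 CPM at E17.5 and 300.4 CPM at E11.5 with overlapping libraries. Rab4a, of early endosomes, fell to 47.4, 37.9 and 54.2 CPM in E17.5 libraries, against 114, 109 and 143 CPM in E11.5 libraries (log2 change -1.39, SE 0.26, adjusted p = 0.00019). That call was lost with scaling by all rows within genes (-0.67, adjusted p = 0.053). Both of its peaks fell, by 1.40 in the coding exon shown above and by 1.36 in the 3' UTR. Rab28, a ciliary Rab, fell by 1.5, Rab13, known from cell junctions, by 1.90 and Rab21, of early endosomes, by 0.93. The fall of Rab21 was not called with scaling by all rows within genes.

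Regulators and effectors of Rab proteins split into 11 rises and 5 falls among 27 genes, 13 and 2 with scaling by exonic counts and 15 and 1 with scaling by all rows within genes. TBC-domain proteins switch Rab proteins off by speeding GTP hydrolysis. Tbc1d30 had 31.4, 32.1 and 17.7 CPM at E17.5, against 1.44, 0 and 0.617 CPM at E11.5 (log2 change 5.13, SE 0.59, adjusted p = 1.6e-06). The E11.5 libraries held few counts of Tbc1d30, so that level is known with little precision. Tbc1d17 was at 123 counts over the E17.5 libraries and 1 count over those of E11.5, a ratio of 59.2 after scaling with a 95% counting interval of 10.4 to 2355. Tbc1d16 and Tbc1d23 rose by 2.73 and 2.42. Tbc1d20, which acts on Rab1, had 19.8, 19.0 and 11.7 CPM at E17.5, against 49.5, 79.0 and 40.7 CPM at E11.5 (log2 change -1.75, SE 0.35, adjusted p = 0.00042). Among effectors, Rab11fip3 and Rab11fip4, partners of Rab11, rose by 2.01 and 1.37. Of the Rab5 effectors, Rabep2 rose by 1.89 and Rabep1 fell by 0.89; the fall was not called with either other scaling.

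Of 16 SNAREs, 3 rose and 5 fell, but 4 rose and 3 fell with scaling by exonic counts, and 7 rose and 3 fell with scaling by all rows within genes. Vamp2, the synaptic vesicle SNARE synaptobrevin, had 859.8, 1192 and 1033 CPM in E17.5 libraries, against 116, 211 and 172 CPM in E11.5 libraries (log2 change 2.63, SE 0.32, adjusted p = 3.1e-06). Stx1a, a plasma membrane syntaxin, had 37.9, 38.2 and 40.8 CPM at E17.5, against 2.40, 3.09 and 1.85 CPM at E11.5 (log2 change 3.98, SE 0.40, adjusted p = 3.7e-07). Its coding peak rose by 4.45 (SE 0.57) and its 3' UTR peak by 3.57 (SE 0.57). The E11.5 libraries held few counts of Stx1a, so that level is known with little precision.

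Among the falls, Vamp3, or cellubrevin, of recycling endosomes, had 91.0, 82.3 and 103 CPM at E17.5, against 304, 411 and 410.3 CPM at E11.5 (log2 change -2.02, SE 0.32, adjusted p = 4.2e-05). Stx17, which acts in the fusion of autophagosomes with lysosomes, had 4.06, 4.09 and 3.55 CPM at E17.5, against 36.5, 26.5 and 25.9 CPM at E11.5 (log2 change -2.92, SE 0.35, adjusted p = 2.3e-06). The plasma membrane syntaxins Stx2 and Stx4a fell by 1.97 and 0.79, and Sec22b, of transport between endoplasmic reticulum and Golgi, by 0.85. The falls of Stx4a and Sec22b were not called with either other scaling, nor without E11.5 replicate 1, and also not without E17.5 replicate 2 for Stx4a and E17.5 replicate 3 for Sec22b. The median of the 16 SNAREs was -0.19, but 0.12 with scaling by exonic counts and 0.52 with scaling by all rows within genes. Stx6, of the trans-Golgi network, had the narrowest stage means of the genes averaging over 20 CPM, between 58.9 and 67.6 CPM.

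**Figure D2:**
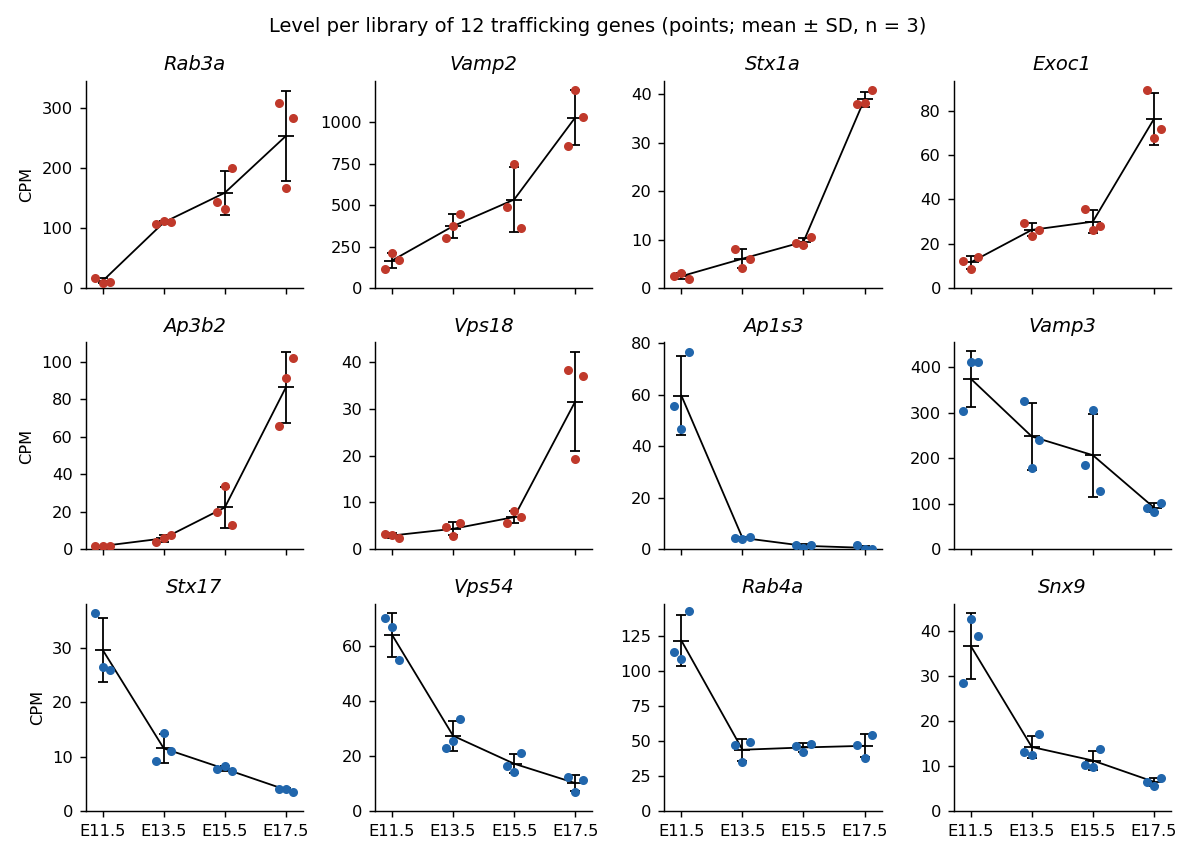
CPM (y axis, from 0) of 12 trafficking genes at 4 stages (x axis); points are single libraries and black lines join means with SD (n = 3). Rab3a, Vamp2, Stx1a, Exoc1, Ap3b2 and Vps18 are highest at E17.5, and Ap1s3, Vamp3, Stx17, Vps54, Rab4a and Snx9 at E11.5; Ap1s3 and Rab4a are near their low level by E13.5.

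Genes named Vps were first found as yeast mutants in sorting to the vacuole. Of 24 tested, 13 rose and 1 fell, against 29.8% and 28.8% of all genes. Vps18 and Vps16 are shared core subunits of the HOPS and CORVET tethers of late and early endosomes. Vps18 had 38.2, 19.3 and 37.0 CPM at E17.5, against 3.36, 3.09 and 2.47 CPM at E11.5 (log2 change 3.38, SE 0.44, adjusted p = 5.7e-06). Few counts of Vps18 were held by the E11.5 libraries, so that level is known with little precision. Vps16 rose by 2.69, Vps41, the HOPS subunit, by 0.99 and Vps8, the CORVET subunit, by 2.02. Vps13d, a lipid transfer protein, rose by 2.53, and Vps45, which controls SNARE assembly, by 1.85. The Vps45 change was -0.76 (adjusted p = 0.036) when its intron peak was added to the sum.

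Vps54 was the one Vps gene that fell. It had 12.5, 6.71 and 11.1 CPM at E17.5, against 70.1, 66.7 and 54.9 CPM at E11.5 (log2 change -2.65, SE 0.32, adjusted p = 2.4e-06). Both of its peaks fell, by 3.39 in the 5' UTR and by 2.10 in the 3' UTR, the second also overlapping Ugp2 on the opposite strand. Vps54 is a subunit of the GARP tether, whose subunit Vps52 had 26.5, 38.8 and 29.6 CPM at E17.5, against 7.69, 3.09 and 11.1 CPM at E11.5 (log2 change 2.11, SE 0.39, adjusted p = 0.00020). Vps53, another GARP subunit, did not pass the test (log2 change 0.78, SE 0.38). In retromer, which returns cargo from endosomes, Vps29 and Vps26b rose by 1.57 and 1.16, while Vps35 (0.09, SE 0.38) and Vps26a (-0.67, SE 0.31) did not pass the test. The Vps26b call was lost without E11.5 replicate 1 or 3 or E17.5 replicate 3. Vps72, a chromatin remodelling subunit despite its name, averaged 165 CPM at E17.5 and 149.6 CPM at E11.5.

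TRAPP is a family of tethers and Rab activators at the Golgi. In it, 6 of 11 genes rose and 1 fell, against 29.8% and 28.8% of all genes. Scaling by all rows within genes gave 7 and 0, against 46.9% and 15.8%. Trappc9 had 62.8, 54.0 and 36.2 CPM at E17.5, against 3.84, 3.09 and 2.47 CPM at E11.5 (log2 change 3.99, SE 0.41, adjusted p = 4.5e-07). Its E11.5 level rests on few counts and is known with little precision. Trappc10, which like Trappc9 belongs to the TRAPPII form, rose by 0.95, a call lost without E11.5 replicate 1 or 2 or E17.5 replicate 1. Trappc12, Trappc11 and Trappc4 rose by 1.78, 1.45 and 1.3. Trappc6a fell by 1.91, whereas its paralogue Trappc6b averaged 227 CPM at E17.5 and 222 CPM at E11.5. The fall of Trappc6a was not called with scaling by all rows within genes or without E17.5 replicate 1.

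In COPII, which buds vesicles from the endoplasmic reticulum, 3 of 7 genes rose and 1 fell, whereas none fell with either other scaling. Sec24c and Sec31a rose by 1.29 and 1.13, Sec24b rose by 0.59 and Sec24a, another cargo-binding subunit, fell by 1.05. The Sec24b call was lost without any one of 5 libraries (E11.5 replicates 1 and 3 and each E17.5 library), and the Sec24a call without E11.5 replicate 2 or E17.5 replicate 3 and with either other scaling. In COPI, which acts between Golgi and endoplasmic reticulum, 2 of 6 rose and 1 fell, against 29.8% and 28.8% of all genes. Scaling by all rows within genes gave 4 and 1, against 46.9% and 15.8%. Cope rose by 1.80 and Copg1 by 1.18. Copz2, the rarer zeta subunit, had 0.542, 0.584 and 0.760 CPM at E17.5, against 18.3, 12.3 and 10.5 CPM at E11.5 (log2 change -4.38, SE 0.60, adjusted p = 1.0e-05). The E17.5 libraries held few counts of Copz2, so that level is known with little precision. Copa, the alpha subunit, averaged 88.6 CPM at E17.5 and 88.8 CPM at E11.5.

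The Sec61 translocon threads new proteins into the endoplasmic reticulum. Its subunits Sec61a1 and Sec61b fell by 1.41 and 1.88. They were the 2 falls among the 6 other Sec genes tested, none of which rose. Over all genes 28.8% fell and 29.8% rose. With scaling by all rows within genes 2 rose and 1 fell, against 46.9% and 15.8% of all genes, and Sec61b was not called. Sec61a1 had 32.0, 56.0 and 32.2 CPM at E17.5, against 125, 82.1 and 112 CPM at E11.5. Its stage mean was 107 CPM as late as E15.5, and it was called lower at E17.5 against E15.5 (log2 change -1.42, SE 0.29, adjusted p = 0.0024).

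Of 12 Arf and Arl GTPases, 1 rose and 4 fell, against 29.8% and 28.8% of all genes. With scaling by all rows within genes 4 rose and 1 fell, against 46.9% and 15.8%. The median log2 change of the 12 was -0.54, but 0.14 with that scaling. Arl8a and Arl8b both couple lysosomes and synaptic vesicle precursors to kinesins. Arl8a had 799.6, 689 and 581 CPM at E17.5, against 344, 305 and 206 CPM at E11.5 (log2 change 1.27, SE 0.28, adjusted p = 0.00087). Arl8b had 11.4, 10.2 and 16 CPM at E17.5, against 55.7, 34.6 and 42.0 CPM at E11.5 (log2 change -1.81, SE 0.34, adjusted p = 0.00024). The peaks holding the stretches shown above changed by 1.02 (SE 0.38) in Arl8a and by -1.80 (SE 0.38) in Arl8b. Arf1, the main recruiter of COPI, had the highest CPM per kilobase of peak and did not pass the test (log2 change -0.39, SE 0.32, overlapping libraries). Arl1, Arl6 and Arf5 fell by 1.13, 1.01 and 0.97; these 3 calls were lost with scaling by all rows within genes, and that of Arl1 also without E11.5 replicate 2.

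Of the 7 Arf regulators and Arl partners, 1 rose and 3 fell, against 29.8% and 28.8% of all genes. Scaling by all rows within genes gave 2 and 2, against 46.9% and 15.8%. Arl2bp, a binder of Arl2, had 82.9, 136 and 92.0 CPM in E17.5 libraries, against 411, 1241 and 495 CPM in E11.5 libraries (log2 change -2.79, SE 0.48, adjusted p = 0.00011). E11.5 replicate 2 was far above its group, and the groups did not overlap. Arl6ip6, an interactor of Arl6, had 2.17, 7.88 and 7.85 CPM at E17.5, against 54.3, 54.3 and 80.2 CPM at E11.5 (log2 change -3.39, SE 0.50, adjusted p = 2.0e-05). Arfgap3, which switches Arf1 off at the Golgi, rose by 1.26.

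Sorting nexins bind phosphoinositides on endosomes, and 7 of 17 rose while 4 fell, against 29.8% and 28.8% of all genes. Scaling by all rows within genes gave 10 and 2, against 46.9% and 15.8%. Snx32 had the highest log2 change of the 184 genes, with 458 counts over the E17.5 libraries and 3 over those of E11.5, a ratio of 73.4 after scaling with a 95% counting interval of 25 to 357. Its libraries held 25.7, 30.6 and 65.4 CPM at E17.5, against 1.44, 0 and 0 CPM at E11.5. With its intron peak added to the sum the log2 change was 1.5 and was not called (adjusted p = 0.076). Snx27 and Snx1, which work with retromer, rose by 1.09 and 1.03, and Snx11 by 1.49. Snx9, which acts in endocytosis, had 6.5, 5.54 and 7.35 CPM at E17.5, against 28.3, 42.6 and 38.9 CPM at E11.5 (log2 change -2.49, SE 0.33, adjusted p = 6.8e-06). Snx3, a retromer partner, fell by 1.31 (adjusted p = 0.00014) and Snx24 by 1.64 (adjusted p = 0.00017). The fall of Snx3 was not called with scaling by all rows within genes.

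The symbol rule also took in 2 pseudogenes, whose reads may come from their parent genes, and 1 antisense transcript. Ap3s1-ps2 fell by 2.33 and Rab11b-ps2 rose by 1.02, while Rab10os did not pass the test (log2 change 0.01, SE 0.47).

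Several changes were seen in how much of one paralogue was present against another in the same library, a ratio that the scaling between libraries enters only through the 0.5 CPM added to each level, which weighs most in genes of low level. Of 67 listed pairs, 29 had both genes in the fit, and 14 ratios changed over the 4 stages with an adjusted p under 0.05 (exact permutation test of the F statistic, adjusted over the 29 pairs). Peak lengths differ between genes, so only the change of a ratio is compared. The log2 ratio of Ap3b2 over Ap3b1 was -4.72, -5.00 and -5.01 in E11.5 libraries, -2.78, -2.68 and -2.50 in those of E13.5, -0.93, 0.25 and -1.56 in those of E15.5 and 0.68, 1.07 and 1.85 in those of E17.5 (exact permutation p = 6.5e-05, the smallest these permutations can give, adjusted p = 0.0019). No 2 stages overlapped in that ratio. The log2 ratio of Rab3a over Rab3b averaged 1.06 ± 0.50, 3.34 ± 0.36, 3.94 ± 0.48 and 1.71 ± 0.15 from E11.5 to E17.5 (SD, n = 3 each, adjusted exact p = 0.0041), the only one of the 14 that was highest at E15.5.

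Trappc10 over Trappc9 averaged -0.56 ± 0.06 at E17.5 and 2.31 ± 0.62 at E11.5 on the log2 scale (adjusted exact p = 0.0041). Arl8b over Arl8a averaged -5.74 ± 0.52 at E17.5 and -2.67 ± 0.42 at E11.5 (adjusted exact p = 0.0070), and Copz2 over Copz1 -4.09 ± 0.24 at E17.5 and -0.55 ± 0.47 at E11.5 (adjusted exact p = 0.0092; SD, n = 3 each throughout). Rab4b over Rab4a was above 0 at E17.5 and below 0 at E11.5, averaging 1.07 ± 0.34 at E17.5 and -1.32 ± 0.30 at E11.5 (adjusted exact p = 0.017). The other 8 pairs were Snx18 over Snx9, Ap1b1 over Ap2b1, Sec24b over Sec24a, Ap3m2 over Ap3m1, Sec61a2 over Sec61a1, Rab6b over Rab6a, Rabep2 over Rabep1 and Snx11 over Snx10. Each of these 8 was higher at E17.5 than at E11.5, by 1.36 to 2.94 on the log2 scale. The call for Rab6b over Rab6a was lost without any one of 4 libraries (E11.5 replicates 1 and 2, E17.5 replicates 1 and 3), and that for Rabep2 over Rabep1 without E11.5 replicate 3 or E17.5 replicate 1 or 3.

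**Figure D3:**
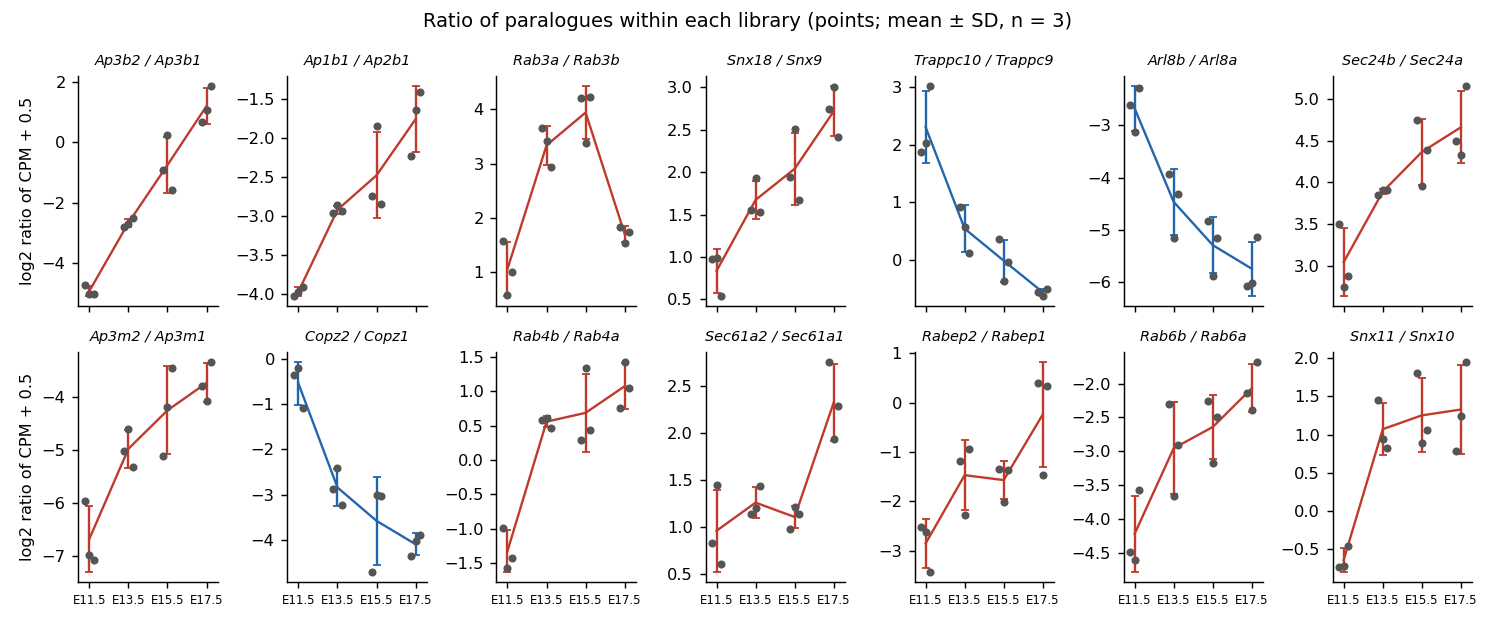
Log2 ratio of CPM + 0.5 (y axis) of the 14 paralogue pairs whose ratio changed, at 4 stages (x axis); points are single libraries and lines join means with SD (n = 3), red where the ratio is higher at E17.5 than at E11.5 and blue where it is lower. Trappc10 over Trappc9, Arl8b over Arl8a and Copz2 over Copz1 fall, and Rab3a over Rab3b peaks at E15.5.

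The changes were spread unevenly over the 3 steps. At E13.5 against E11.5, 18 of 184 trafficking genes rose (9.78%) and 19 fell (10.3%), against 14% and 11.3% of all genes. Rab3a (log2 change 3.17, adjusted p = 3.9e-06), Trappc9 (2.31) and Exoc7 (1.41) were among the rises, and Ap1s3 (-3.72), Copz2 (-2.50), Stx2 (-1.60) and Snx24 (-1.54) among the falls. The call of Exoc7 was lost without E11.5 replicate 2 or E13.5 replicate 3, and those of Stx2 and Snx24 with scaling by all rows within genes. This split was 41 rises and 12 falls with scaling by exonic counts, against 25.7% and 5.78% of all genes. It was 111 and 2 with scaling by all rows within genes, against 56.3% and 2.08% of all genes. That scaling moved the median of all genes by 0.94.

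At E15.5 against E13.5, Ap3b2 was the 1 member that rose (log2 change 1.90, SE 0.37, adjusted p = 0.017), and none fell, where 0.196% of all genes rose and 0.549% fell. At an unadjusted p under 0.05 there were 11 of 184 members and 751 of all 7651 genes tested, and DESeq2 called 2 members. The Ap3b2 call was lost without E13.5 replicate 1 or 2, or E15.5 replicate 1 or 2.

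At E17.5 against E15.5, 22 trafficking genes rose (12%) and 5 fell (2.72%), against 9.74% and 12.2% of all genes. Rises included Rab3b (2.93), Vps18 (2.19, adjusted p = 0.00053), Stx1a (2.02), Ap3b2 (1.95) and Tbc1d30 (1.85). Arl6ip6 (-2.21, adjusted p = 0.0037), Sec61a1 (-1.42), Rab13 (-1.20), Vamp3 (-1.17) and Stx17 (-0.99) fell. The call of Stx17 was lost without any one of the 12 libraries, that of Rab13 without any one of 9 and that of Vamp3 without E15.5 replicate 2 or E17.5 replicate 1. The count of 27 was 16 without E15.5 replicate 1 and 14 without E17.5 replicate 3. Scaling by all rows within genes gave 12 rises and 18 falls here, against 4.74% and 21.1% of all genes. Scaling by exonic counts gave 16 and 9, against 7.54% and 14.9% of all genes.

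Over the 4 stages together, 90 of 184 trafficking genes changed (48.9%), against 54.9% of all genes. Of these 90, 30 were highest at E11.5 by stage mean, 2 were at E13.5, 3 were at E15.5 and 55 were at E17.5. In percent, 61.1% of the changed trafficking genes were highest at E17.5, against 41.4% of the 4197 changed genes in all. Snx10 and Trappc13 changed over the stages without being called between the ends: Snx10 averaged 50.6, 25.6, 28.3 and 36.3 CPM and Trappc13 18.2, 27.8, 24.9 and 12.7 CPM from E11.5 to E17.5.

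**Figure D4:**
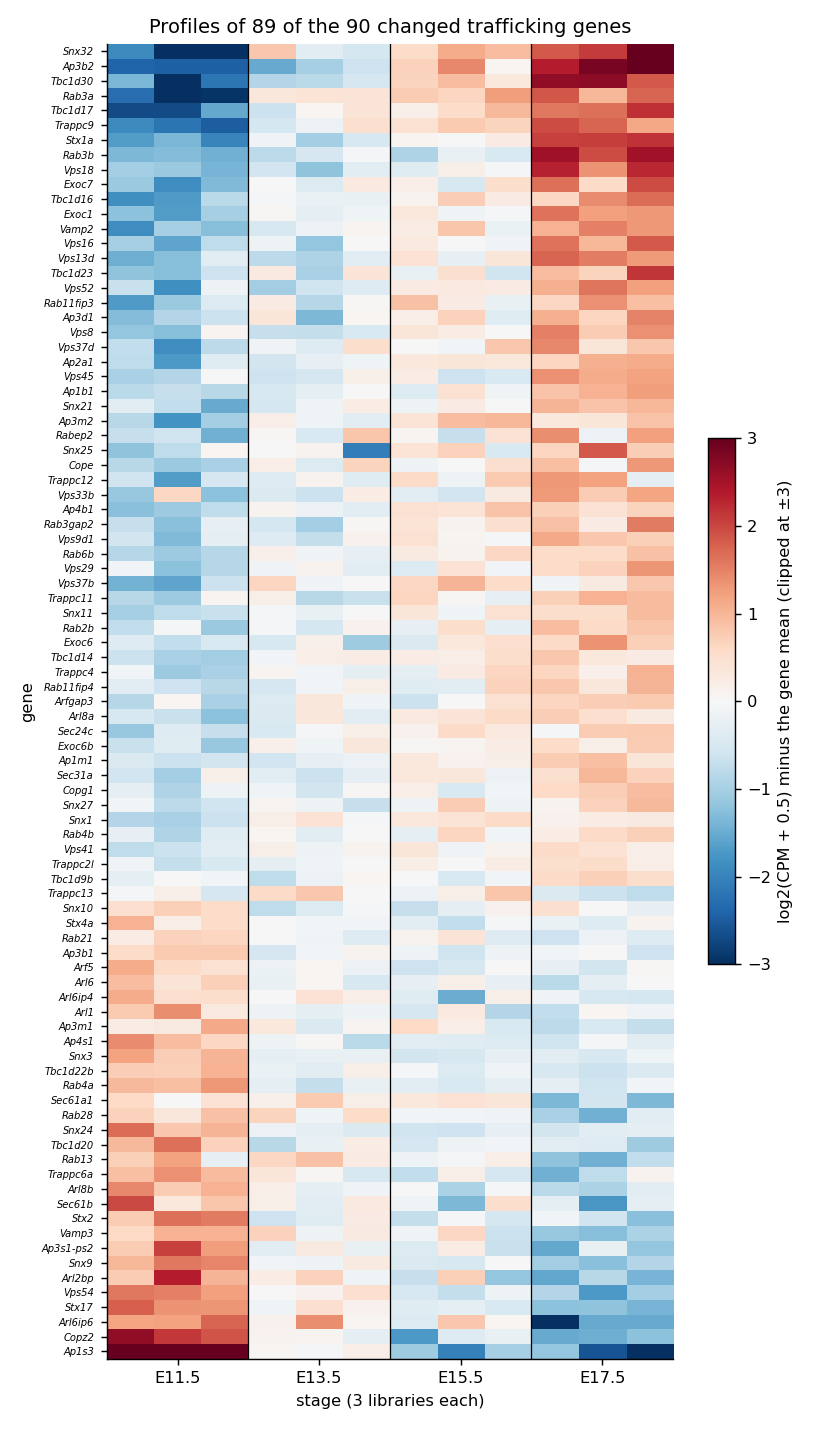
Log2(CPM + 0.5) minus the gene's own mean, clipped at 3 in either direction, in the 12 libraries (columns, 3 for each stage) of 89 of the 90 trafficking genes that changed over the stages (rows, ordered by the difference between E17.5 and E11.5). Red is above and blue below the gene's mean; 55 of the 90 genes have their highest stage mean at E17.5 and 30 at E11.5.

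Taken singly, 102 of 321 tested peaks rose (31.8%) and 50 fell (15.6%) at E17.5 against E11.5, against 26.4% and 26.2% of all peaks. In 66 of the 78 genes with several tested peaks, each peak had the same sign. In none did one peak pass as higher and another as lower. Of the 12 with both signs, Vps13a, a lipid transfer protein, had peaks between -1.49 and 1.97, of which the rise of 1 peak passed. Agreement in sign was not computed over all genes. Many of the 78 genes had 2 peaks, which can share a sign without moving together, and some, such as Arf3 and Exoc4, had no called peak.

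Exonic sequence under the peaks differed in base composition between the groups of calls. The median GC content was 52.6% in 67 genes that rose, 45.5% in 33 that fell and 46.8% in 70 that were not called at E17.5 against E11.5; over all genes it was 51.2%, 47.0% and 48.3%. Of trafficking genes with under 45% GC, 13 of 59 rose and 16 fell (27.1%), against 22.5% and 34.6% of all genes in that class. Of those with 55% or more, 23 of 42 rose (54.8%) and 3 fell (7.14%), against 40.3% and 22.7% of all genes in that class. Across 170 genes of the same libraries, Pearson's r between GC content and log2 change was 0.29 (Spearman's rho 0.28), and 0.13 across all 6890 genes with a value. The part of base composition in the changes was not tested.

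**Figure D5:**
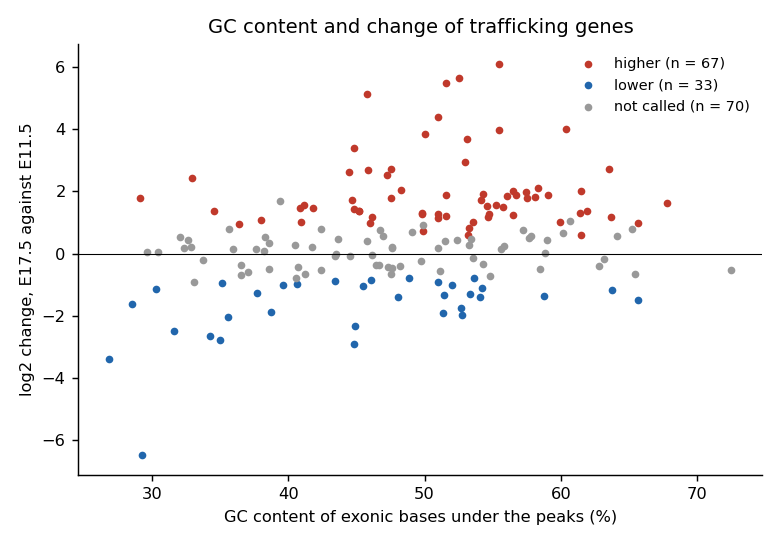
Log2 change at E17.5 against E11.5 (y axis) against the GC content in percent of exonic bases under the peaks (x axis) of 170 trafficking genes, coloured by call. Genes that fell are spread over most of the range. At 55% or more, 3 of the 42 genes fell (7.14%), against 22.7% of all genes in that class.

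Other trafficking genes, listed by pathway, moved in both directions in the same fit. Of 22 clathrin and endocytosis genes tested, 13 rose and 5 fell, with a median log2 change of 1.28. Dnm1, the neuronal dynamin that severs vesicles, averaged 234 CPM at E17.5 and 21.4 CPM at E11.5 (log2 change 3.47), whereas Dab2, a clathrin adaptor, averaged 1.71 CPM at E17.5 and 30.0 CPM at E11.5 (-4.10). Of 34 SNARE partners and Golgi tethers, 15 rose and 4 fell; Snap25, the partner of Stx1a and Vamp2 in synaptic fusion, rose by 5.72. Of 36 activators and carriers of Rab and Arf proteins, 17 rose and 5 fell, among them Madd, an activator of Rab3 (4.31). Of 24 genes of exit from the endoplasmic reticulum and of the Golgi, 5 rose and 10 fell, including the cargo receptors Tmed2 (-3.55) and Kdelr2 (-2.26). The median of these 24 was -0.61, but 0.09 with 8 rises and 7 falls with scaling by all rows within genes. Of 17 ESCRT genes, which bud vesicles into endosomes, 6 rose and 6 fell, or 8 and 1 under that scaling. It gave 14 rises and 3 falls for the clathrin and endocytosis genes, 22 and 2 for the SNARE partners and tethers, and 22 and 3 for the activators and carriers. Over all genes 29.8% rose and 28.8% fell, or 46.9% and 15.8% under that scaling.

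Marker genes of cell types also differed between stages. The lists overlap: that of cortex shares Neurod6 and Neurod2 with the neuron list and Emx2 with the radial glia list. Snap25 is both a neuron marker and one of the SNARE partners above. Of 10 neuron markers tested, 9 rose at E17.5 against E11.5, and their summed level was 558 to 635 CPM in E11.5 libraries, 3266 to 3679 CPM at E13.5, 4753 to 6056 CPM at E15.5 and 8872 to 9905 CPM at E17.5. Of 8 radial glia markers, 1 rose and 6 fell, with sums of 4558 to 4769 CPM at E11.5, 1499 to 2160.1 CPM at E13.5, 1476 to 1571 CPM at E15.5 and 1229.6 to 1858 CPM at E17.5. Of 9 cortex markers, 4 rose and 2 fell, and their sum was highest at E15.5, with 5565 to 6208 CPM, against 4116 to 4968 CPM at E17.5 and 3349 to 4344 CPM at E11.5. Each of the 7 mesenchyme markers tested fell at E17.5 against E11.5. Their sum was 390.02 to 464 CPM at E11.5, 499 to 537 CPM at E13.5, 52.2 to 65.2 CPM at E15.5 and 5.57 to 6.77 CPM at E17.5. Of 9 listed erythroid markers, 2 were in the table and both fell, to at most 0.292 CPM in sum at E17.5, against 46.9 to 53.8 CPM at E11.5; of 5 microglia and vessel markers, 1 rose and 2 fell. The part of these cell types in the changes of trafficking genes was not tested.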

How the data were processed

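RNA immunoprecipitations with an antibody against STAU2 from embryonic mouse cortex were described from 1 table of read counts per peak, which the authors deposited together with a score for each peak. Per the submitters' processing notes, HOMER 4.10 and the builds mm10 and GRCm38 were used; no label or header names the aligner or counter. The peak score is the authors' own and was used only to keep the peaks at or above the median score of 30.2 in one alternative. Of 18975 rows, 4513 are intergenic and hold no odd count, so they entered no total; 124 exonic rows without a gene symbol were left out of the gene sums.

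Exonic counts were summed per gene for 7702 genes and fitted with edgeR 4.0.16 in R 4.3.3 (TMM, filterByExpr, quasi-likelihood F test, all 4 stages in 1 fit without a block, Benjamini-Hochberg adjustment over 7651 genes at 0.05). SE is the absolute log2 change over the square root of F. Single peaks were fitted likewise, DESeq2 1.42.0 was an alternative, and paralogue ratios of CPM + 0.5 were tested by exact permutation in Python 3.11.15 with Benjamini-Hochberg adjustment over 29 pairs. Counting intervals are exact at 95% and cover counting error only. On simulated data for E17.5 against E11.5 over 7651 genes, 100 genes were changed 2-fold and 100 others 3-fold. The fit recovered 12% of the 2-fold and 64% of the 3-fold changes, with 2 false calls among 78. For the other 3 comparisons it recovered 12% to 20% and 62% to 69%, with 5 to 7 false calls.

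The genes and lists were chosen with earlier results of these data known. Named genes were the 8 largest rises and falls of each comparison that passed and did not overlap, the 2 highest per kilobase and the 2 smallest p-values over the stages in each role group, both genes of each changed paralogue pair, and the 5 genes over 20 CPM with the smallest range of stage means relative to their mean. The relative range, the separate group of pseudogenes, the GC classes and the shown sequences were chosen after values were seen, and so were Ap1m1, Ap2a1, Ap3s2, Ap4b1, Ap4s1, Arf5, Arfgap3, Arl1, Arl6, Copg1, Exoc3, Exoc6b, Rab11fip3, Rab11fip4, Rab21, Rab28, Sec22b, Snx1, Stx4a, Trappc12, Trappc13, Trappc4, Trappc6a, Vps13d, Vps16, Vps29, Vps35, Vps41, Vps52, Vps53 and Vps8. GC content and sequences come from GENCODE M21 transcripts, and helices from RNAfold 2.7.2. Other scalings, tools, filters, choices of peaks, a replicate block and leaving out each library were tried as alternatives; applying them to the pathway lists, and the scalings and left-out libraries to called genes outside the naming rule, was chosen after seeing the data. Some genes and a sequence are not reported here.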

Additional observations from a re-analysis of the deposited data

Results flagged for a closer look

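Peaks in introns of trafficking genes were outside the gene sums. All 9 of them held counts over the 12 libraries. The intron peak of Snx32 held 47746 counts, far above the sum of the exonic peak of that gene. It lies at chr19:5493638-5494133 on the minus strand, where the same interval on the plus strand is the 3' UTR peak of Cfl1, which held 182818 counts. In Snx32 the intron peak was highest in replicate 2 at each stage, with 10503 counts at E17.5 and 1581 at E11.5 in that replicate. The intron peak of Vps45 held 4019 counts, and adding it turned the direction of that gene. The intron peaks of Vamp4, Rab10os and Snx12 held 518, 471 and 340 counts. Those of Ap4s1 and Sec31a held 135 and 58 counts, and the 2 intron peaks of Copg2 held 83 and 56. Whether these counts come from the gene's own unspliced RNA was not tested.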

How the results depend on the processing

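At E17.5 against E11.5 the count of 105 changed genes stayed within 1.5 times under each alternative run, and from 89 to 106 with libraries left out; over the 4 stages it was 90, and 78 to 93 with libraries left out. At E13.5 against E11.5 the count of 37 was 113 with scaling by all rows within genes, 23 with peaks at or above the median score, 24 with 3' UTR peaks only and 27 to 40 with libraries left out. At E15.5 against E13.5 the count of 1 was 2 with DESeq2 and 0 to 1 with libraries left out. At E17.5 against E15.5 the count of 27 was 16 with peaks at or above the median score and 14 to 29 with libraries left out. Of 14 changed paralogue ratios, 7 changed with 3' UTR peaks only, and 12 to 15 with libraries left out. The 86 changed related genes were 47 with peaks at or above the median score, 57 with 3' UTR peaks only and 73 to 87 with libraries left out; the 152 changed single peaks were 124 to 155. The cause of these shifts was not tested, except that the choices of peaks leave fewer genes and counts. Counting rows that share a peak and strand once gave no separate value, since no gene had such rows.

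Directions turned as follows, on the log2 scale at E17.5 against E11.5 unless stated. With scaling by all rows within genes, Ap3b1 at E13.5 against E11.5 was 0.11, Ap2b1 0.34, Arf1 0.29, Copa 0.70, Copz1 0.59, Rab6a 0.083, Sec61a2 0.63, Snx10 0.23, Snx18 0.16, Stx6 0.55, Trappc1 0.47 and Vps26a 0.015. With scaling by exonic counts, Copa was 0.30, Copz1 0.19, Sec61a2 0.24, Stx6 0.15 and Trappc1 0.061. With peaks at or above the median score, Copa was 0.19, Sec61a2 0.0026 and Snx2 -0.13, and with 3' UTR peaks only Sec62 was -0.10, Snx2 -0.30, Trappc6b -0.12 and Vps72 -0.017. With intron peaks added, Vps45 was -0.76. With libraries left out, Copa ranged from -0.16 to 0.18, Copz1 from -0.30 to 0.020, Rab10os from -0.29 to 0.33, Sec61a2 from -0.18 to 0.070, Sec62 from -0.34 to 0.38, Snx2 from -0.20 to 0.32, Trappc1 from -0.44 to 0.18, Trappc6b from -0.50 to 0.39, Vps13a from -0.038 to 0.36 and Vps72 from -0.12 to 0.30. Apart from Ap3b1 and Vps45, none of these genes was called in the comparison given.

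The labels tie replicate numbers to no shared animal, litter or day, so the numbers were not taken as pairs. Of 18 correlations between same-numbered libraries of different stages, 11 were over 0.1 (median 0.13). Between different numbers, 9 of 36 were (median -0.18). The 6 among libraries numbered 2 were each over 0.1, from 0.12 to 0.51, while 4 of 12 libraries correlated best with their own number. Whether libraries of one number share a batch was not tested. With a replicate block the counts were 92 over the stages, 40, 1, 29 and 108 for the 4 comparisons, 157 single peaks and 16 paralogue ratios, while Copa was 0.0098, Sec62 -0.037 and Trappc6b -0.090. In the simulated data the fits recovered few 2-fold changes. There 100 genes were changed by each fold, whereas 58.6% of all genes were called here at E17.5 against E11.5. The adjustment is less strict when more genes change, so the simulated share does not carry over to that comparison.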
